A study of Solanum lycopersicum with 12 samples.

Results

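The genes described here are 34 tomato loci listed as heat shock proteins (HSPs) and heat shock factors (HSFs), chosen by locus identifier from a list drawn up with earlier results of the same data known. Of these, 33 stood in the deposited count table of 34075 genes, and Solyc08g062450 was not analysed here. The list holds 15 small HSPs (14 in the table), 1 HSP101, 5 HSP70s, 4 HSP90s and 9 HSFs, and 30 of the 33 had enough reads to be tested among 22157 genes. The table does not pair loci with names, so that the families follow the list. Names of single loci were given only where the supplementary annotation of the study had them.

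Leaves of the dwarf tomato cultivar Micro Tom were sequenced 48 h after the treatments as poly-A RNA, with 3 libraries in each of 4 groups. Plants of the ultrasound group (US) stood for 5 min under an ultrasonic head of 30 kHz and 120 W at a mean distance of 6 cm in air. Plants of the drought group (D) were watered with 10 ml of 20% polyethylene glycol, which lowers the water potential of the substrate, and those of US + D received the same solution directly after ultrasound. Control plants (C) were untreated, and all plants grew at 24 °C with 16 h of light and 8 h of dark. The 3 libraries of a group were described as biological replicates, without a statement of how many plants went into each. Library totals lay between 33640280 and 106829565 counts, and levels are given as CPM, the counts of a gene brought to a common library size with the scaling of edgeR.

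Heat shock proteins are chaperones that keep other proteins folded. Small HSPs bind unfolding proteins and hold them in solution, HSP101 pulls proteins out of aggregates, HSP70 folds and refolds proteins with DnaJ co-chaperones, and HSP90 matures client proteins such as kinases and receptors and holds HSFs inactive. HSFs bind heat shock elements in promoters and switch on chaperone genes. In plants many of these genes are nearly silent in unstressed leaves and are strongly induced by heat, while constitutive HSP70 and HSP90 genes are among the abundant transcripts of every cell, and drought or osmotic stress induces part of the set. In RNA from whole leaves, a lower level in every cell and fewer cells that express a gene cannot be told apart.

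The members together took between 0.346 and 0.999% of the counts of a library. An HSP70 (Solyc09g010630, chromosome 9, 4005875 to 4009414, + strand, in the SL4.0 coordinates of the table) and an HSP90 (Solyc07g065840, chromosome 7, 67281074 to 67284794, - strand) averaged 2867 and 2187 CPM over the 12 libraries and made up between 74.1 and 87.1% of all member counts. Per kb of gene span, introns included, their levels were 810 and 588 CPM. Within the small HSPs the level per kb lay between 0.286 and 118 CPM among the 12 tested genes, with 7 of them under 1 CPM in the mean. The highest small HSP was Solyc06g076520 (chromosome 6, 45227381 to 45227845, - strand), with a mean of 54.7 CPM. HSP101 (Solyc03g115230, chromosome 3, 59435365 to 59439567, - strand) averaged 20.8 CPM, and the 8 tested HSFs lay between 4.54 and 67.8 CPM.

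The members lie on 12 chromosomes. In a stretch of chromosome 6 from 45227381 to 45243522 there are 4 small HSPs of the list, which differed widely in level. Solyc06g076520 averaged 54.7 CPM, Solyc06g076570 averaged 15.9 CPM, Solyc06g076560 averaged 3.71 CPM, and Solyc06g076540 had between 0 and 3 counts in a library. Solyc06g076520, Solyc06g076540 and Solyc09g015020 have the same gene span of 465 bases. Reads shared by near-identical copies can be split or lost in counting, and how they were counted is not given in the sources used here, so that the division of reads inside this family is uncertain. Solyc09g015020 had 0 counts in all 12 libraries. At 3 counts this allows up to 0.0877 CPM in US + D replicate 2, the library with the smallest size after scaling. Solyc09g015020 overlaps another gene, as does Solyc03g082420.

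**Figure D1:**
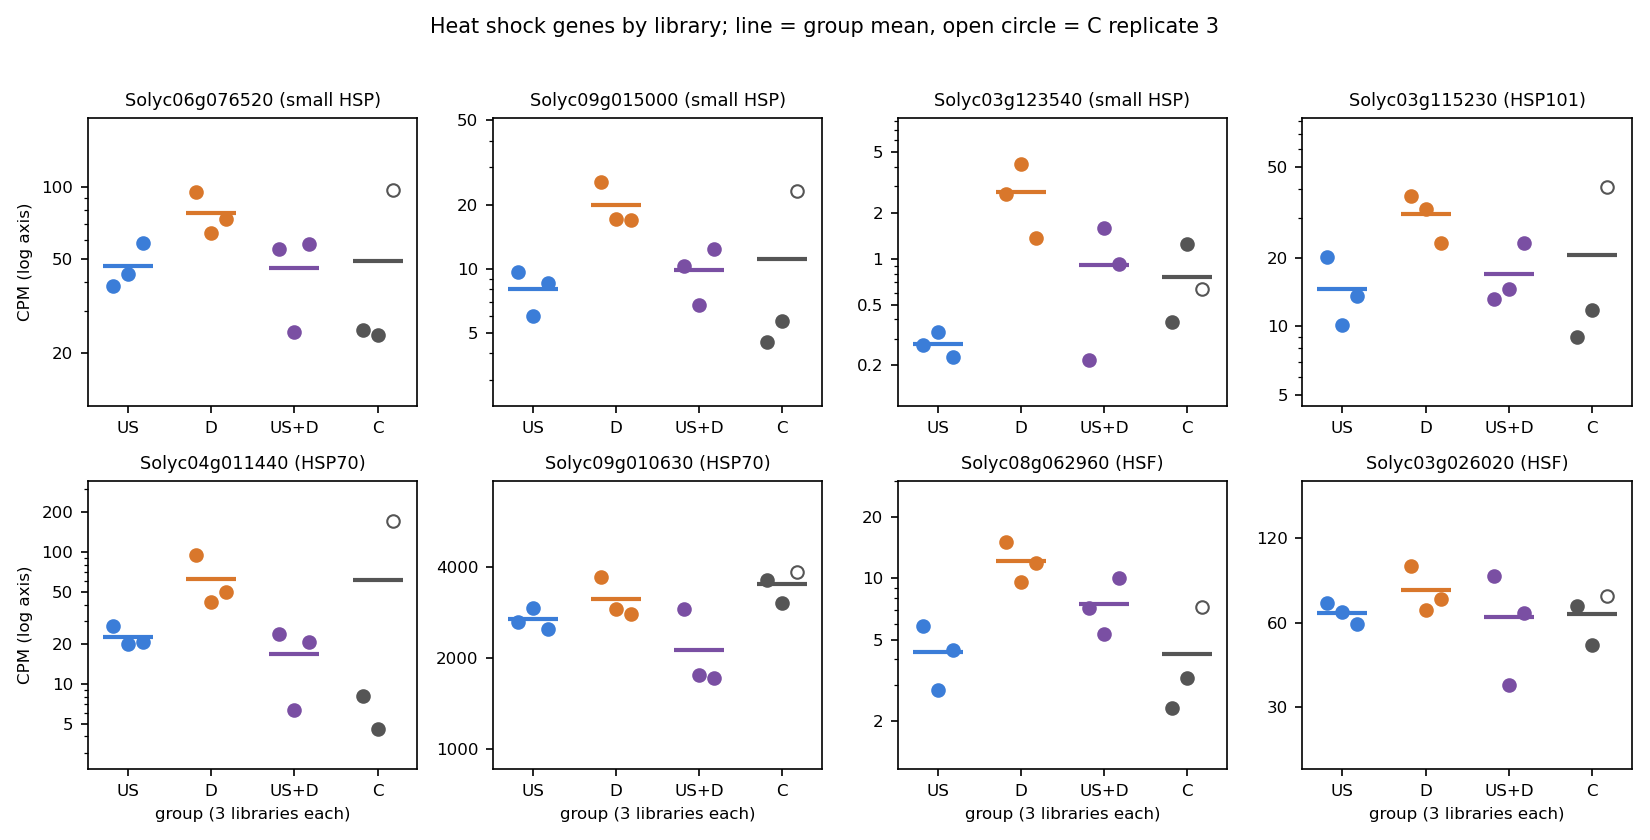
CPM (log axis) of 8 heat shock genes in each of the 12 libraries, grouped as US, D, US+D and C. Points are libraries, lines are group means, and the open circle is C replicate 3, which lies above both other C libraries in 7 of the 8 panels and below 1 of them for Solyc03g123540.

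The control group was not uniform for these genes, and the counts of every comparison with C are therefore given with and without C replicate 3. That library was singled out by the levels of these same members. Leaving it out thus raises them against C by construction, and the shares of all genes are no yardstick for that rise. In that library, 27 of the 30 tested members were above both other C libraries, against 37.5% of all tested genes, and 28 were above their mean. The median difference on the log2 scale was 1.50 over the members and 0.00 over all genes. It was 2.03 for small HSPs, 1.99 for HSP101, 1.62 for HSP70s, 1.08 for HSP90s and 0.41 for HSFs. For 15 of the 30 members, C replicate 3 held the highest level of all 12 libraries, and C replicate 1 held the lowest for 10. The ethylene-responsive heat shock cognate HSP70 (Solyc04g011440, chromosome 4, 3928359 to 3931599, + strand) had 172.2 CPM in C replicate 3, 8.06 CPM in C replicate 1 and 4.53 CPM in C replicate 2. The small HSP Solyc01g102960 (chromosome 1, 83883949 to 83884828, + strand) had 237 counts in C replicate 3, beside 2 and 4 counts in C replicates 1 and 2. The small HSP Solyc05g014280 (chromosome 5, 8154188 to 8156741, - strand) had 245 counts there, beside 2 and 20. Both small HSPs had counts in every treated library. Solyc01g102960 had 13, 13 and 20 counts in US, 79, 45 and 41 in D, and 12, 8 and 56 in US + D. Solyc05g014280 had 7, 2 and 35 counts in US, 64, 42 and 43 in D, and 10, 17 and 29 in US + D, so that its count in US replicate 2 was under the floor of 3. These counts are not scaled for library size. The 56 counts of Solyc01g102960 in US + D replicate 3 were 0.656 CPM, and its 41 counts in D replicate 3 were 0.988 CPM. For both genes all 3 D libraries were above the US libraries and the US + D libraries in CPM.

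Other values moved with that library. The summed level of the 10 photosynthesis markers (Rubisco small subunits and chlorophyll a-b binding proteins, which define green leaf) was 13068 CPM in C replicate 3, beside 25688 and 40587 CPM in C replicates 1 and 2. It was between 14117 and 59202 CPM in the 9 treated libraries. All 10 leaf markers were expressed in all 12 libraries. Of 3 markers of fruit and pollen, polygalacturonase had 0 or 1 count in every library and LAT52 had 0 to 20 counts. The fruit ripening gene E8, which responds to ethylene, had 65.7 CPM in C replicate 3 and 44.9 and 29.3 CPM in the other C libraries, while the US libraries held 41.1 to 57.9 CPM, those of D 72.4 to 96.8 CPM and those of US + D 20.7 to 65.4 CPM. C replicate 3 was not the only deep library, since C replicate 2 had 106829565 counts and C replicate 3 had 99000486. The part of these differences in the chaperone levels was not tested.

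The spread between libraries of a group differed between the families. The within-group SD of log2 CPM had a median of 0.71 over the members and 0.38 over all tested genes. In C alone it was 1.07 for the members and 0.37 for all genes, while in the 3 treated groups it was 0.57 and 0.36. Small HSPs had a median SD of 0.84, HSP70s of 0.73, HSP90s and HSP101 of 0.70, and HSFs of 0.49. Solyc05g014280, Solyc04g011440 and Solyc01g102960 had the highest values among the members, 1.58, 1.54 and 1.50. At the other end stood HSFs: Solyc08g005170 (chromosome 8, 124897 to 130446, - strand) varied with an SD of 0.16 and Solyc09g009100 with an SD of 0.20. In their deviations from the group means over the 12 libraries, pairs of members had a median Pearson r of 0.41, and pairs of small HSPs a median r of 0.54, while pairs of all genes were at 0.00. Over the 9 treated libraries alone the median was 0.22 for pairs of members and 0.26 for pairs of small HSPs. These values describe shared movement of the same libraries, with C replicate 3 among the 12.

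**Figure D2:**
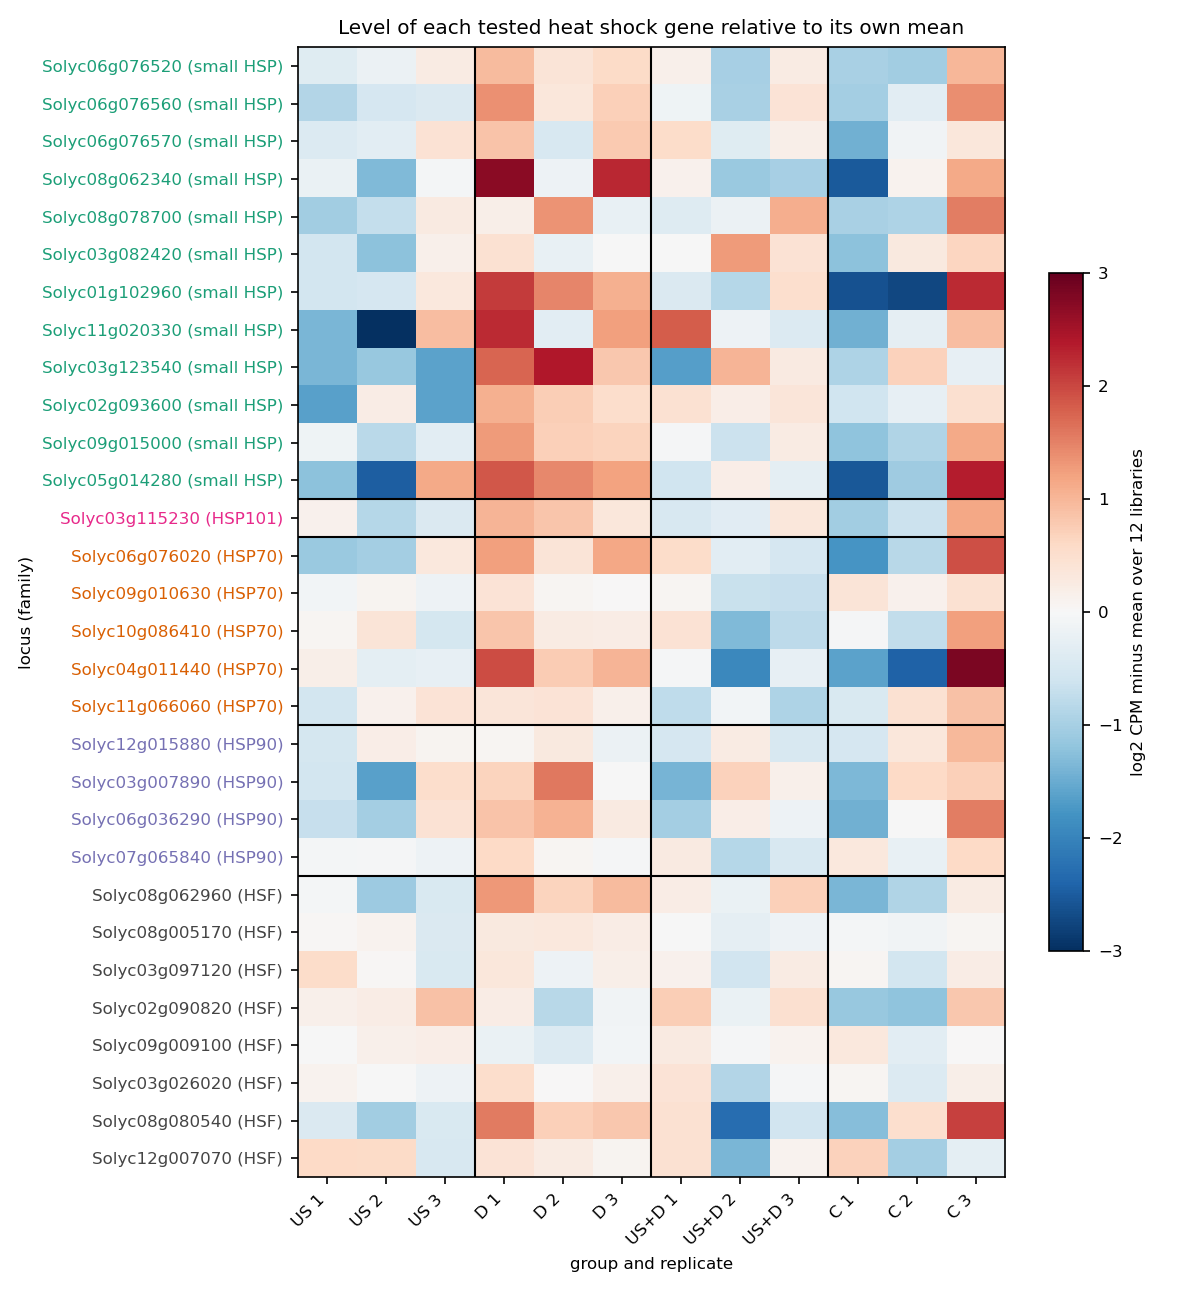
Level of the 30 tested members (rows, by family) in the 12 libraries (columns, grouped as US, D, US+D and C), as log2 CPM minus the mean of the gene over all libraries. Of 12 small HSPs, 0, 1 and 7 lie above their mean in US replicates 1, 2 and 3, 12, 8 and 10 in D, 5, 4 and 9 in US+D, and 0, 3 and 11 in C.

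D against C asks which of these genes differed 48 h after the osmotic treatment. Levels were mostly higher in D: 24 of the 30 members had a positive log2 fold change, against 45.3% of all genes, and the median was 0.30, against -0.05 over all genes. By family the medians were 0.78 for 12 small HSPs (11 higher), 0.59 for HSP101, 0.02 for 5 HSP70s, 0.11 for 4 HSP90s and 0.24 for 8 HSFs (7 higher). The edgeR quasi-likelihood test called 0 members at an adjusted p under 0.05 and an absolute log2 fold change over 0.58, where it called 0.00451% of all genes. At an unadjusted p under 0.05, 2 members were higher and 0 were lower, where 5% and 6.09% of all genes were. DESeq2 with the same thresholds called 1 member, where it called 1.86% of all genes, and limma voom with quality weights called the same 1, where it called 1.01%.

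That member was an HSF (Solyc08g062960, annotated as a heat shock transcription factor, chromosome 8, 50482162 to 50484185, - strand). It had 15.0, 9.64 and 11.9 CPM in D, against 2.32, 3.23 and 7.20 CPM in C. All 3 D libraries were above all 3 C libraries, C replicate 3 included. Its log2 fold change was 1.52 (standard error, SE, 0.44, adjusted p = 0.294 in edgeR and 0.0374 in DESeq2), while over the alternatives this value lay between 0.0371 (limma voom) and 0.698 (edgeR without D replicate 2). Without C replicate 3 its log2 fold change was 2.14. DESeq2 lost the call without C replicate 1 and without each D library.

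The second member at an unadjusted p under 0.05 was the class III small HSP Solyc03g123540 (chromosome 3, 64822750 to 64823379, - strand), which unlike most small HSPs was not raised in C replicate 3. It had 2.66, 4.17 and 1.37 CPM in D, against 0.383, 1.25 and 0.636 CPM in C, with a log2 fold change of 1.84 (SE 0.68, adjusted p = 0.385 in edgeR), or 1.74 without C replicate 3. The small HSP Solyc08g062340 (chromosome 8, 49018254 to 49019026, - strand) had 2.12, 0.26 and 1.54 CPM in D, against 0.0213, 0.320 and 0.693 CPM in C, so that the groups overlapped. Its log2 fold change was 1.89 (SE 0.97, adjusted p = 0.50 in edgeR), and 2.84 without C replicate 3. The libraries of D lay above all those of C for 4 members (Solyc08g062960, Solyc03g123540, the small HSP Solyc02g093600 and the HSF Solyc08g005170) and below them for 0, where 9.16% and 10.4% of all genes did so.

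C replicate 3 was picked for its high levels of these members, so that leaving it out raises D against C by construction. Without C replicate 3, D was higher than C in 28 of the same 30 members, where 48.5% of all genes were, with a median log2 fold change of 1.25 (all genes: -0.02). Of these, 14 had an unadjusted p under 0.05 (6.17% of all genes higher and 5.53% lower), all of them higher in D. By family the medians were 1.71 for small HSPs (12 of 12 higher), 1.60 for HSP101, 0.82 for HSP70s, 0.58 for HSP90s and 0.39 for 8 HSFs. The libraries of D lay above the 2 remaining C libraries for 17 of 30 members and below them for 0, where 16.9% and 18% of all genes did so. edgeR again called 0 members, with 0.150 as the lowest adjusted p. DESeq2 called 8, where it called 2.4% of all genes (Solyc01g102960, Solyc05g014280, Solyc06g076520, Solyc09g015000, HSP101, the HSP70s Solyc04g011440 and Solyc06g076020, and the HSF Solyc08g062960). With all libraries DESeq2 gave Solyc04g011440 no p-value at least in the comparisons with C and in US + D against D, so that it was not tested there. That it is missing from the DESeq2 calls with all libraries is therefore no result.

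The small HSP Solyc06g076520 had 95.5, 63.9 and 73.7 CPM in D, against 25.1, 23.9 and 97.7 CPM in C. The log2 fold change was 0.67 (SE 0.52, adjusted p = 0.665 in edgeR) with all libraries and 1.68 without C replicate 3. HSP101 had 37.5, 32.6 and 23.2 CPM in D, against 8.93, 11.8 and 41.0 CPM in C, and its log2 fold change was 0.59 (SE 0.51, adjusted p = 0.704 in edgeR), or 1.60 without that library. Solyc04g011440 had 95.6, 41.7 and 49.5 CPM in D, against 8.06, 4.53 and 172.2 CPM in C, and its log2 fold change was 0.02 (SE 1.06, adjusted p = 0.997 in edgeR), or 3.32 without it. In each of these 3 genes all D libraries lay between C replicate 3 and the other C libraries.

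In the most abundant HSP70 and HSP90 and in the highest HSF, the log2 fold change depended less on C replicate 3. The HSP70 Solyc09g010630 had 3717, 2908 and 2797 CPM in D, against 3621, 3050 and 3847 CPM in C, with a log2 fold change of -0.16 (SE 0.28, adjusted p = 0.870 in edgeR), and of -0.07 without C replicate 3. The HSP90 Solyc07g065840 had 3169, 2206 and 2061 CPM in D, against 2619, 1816 and 3186 CPM in C, with a log2 fold change of -0.04 (SE 0.34, adjusted p = 0.983 in edgeR), and of 0.18 without C replicate 3. The highest HSF, Solyc03g026020 (chromosome 3, 3416861 to 3418590, + strand), had 95.7, 66.6 and 72.9 CPM in D, against 69.0, 49.7 and 74.8 CPM in C, and its log2 fold change was 0.28 (SE 0.29, adjusted p = 0.753 in edgeR), or 0.42 without C replicate 3. Not every abundant chaperone was like this. The HSP70 Solyc10g086410, with a mean of 151 CPM, had 241, 161 and 158 CPM in D, against 132, 81.4 and 317 CPM in C. Its D libraries thus lay between C replicate 3 and the other C libraries.

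**Figure D3:**
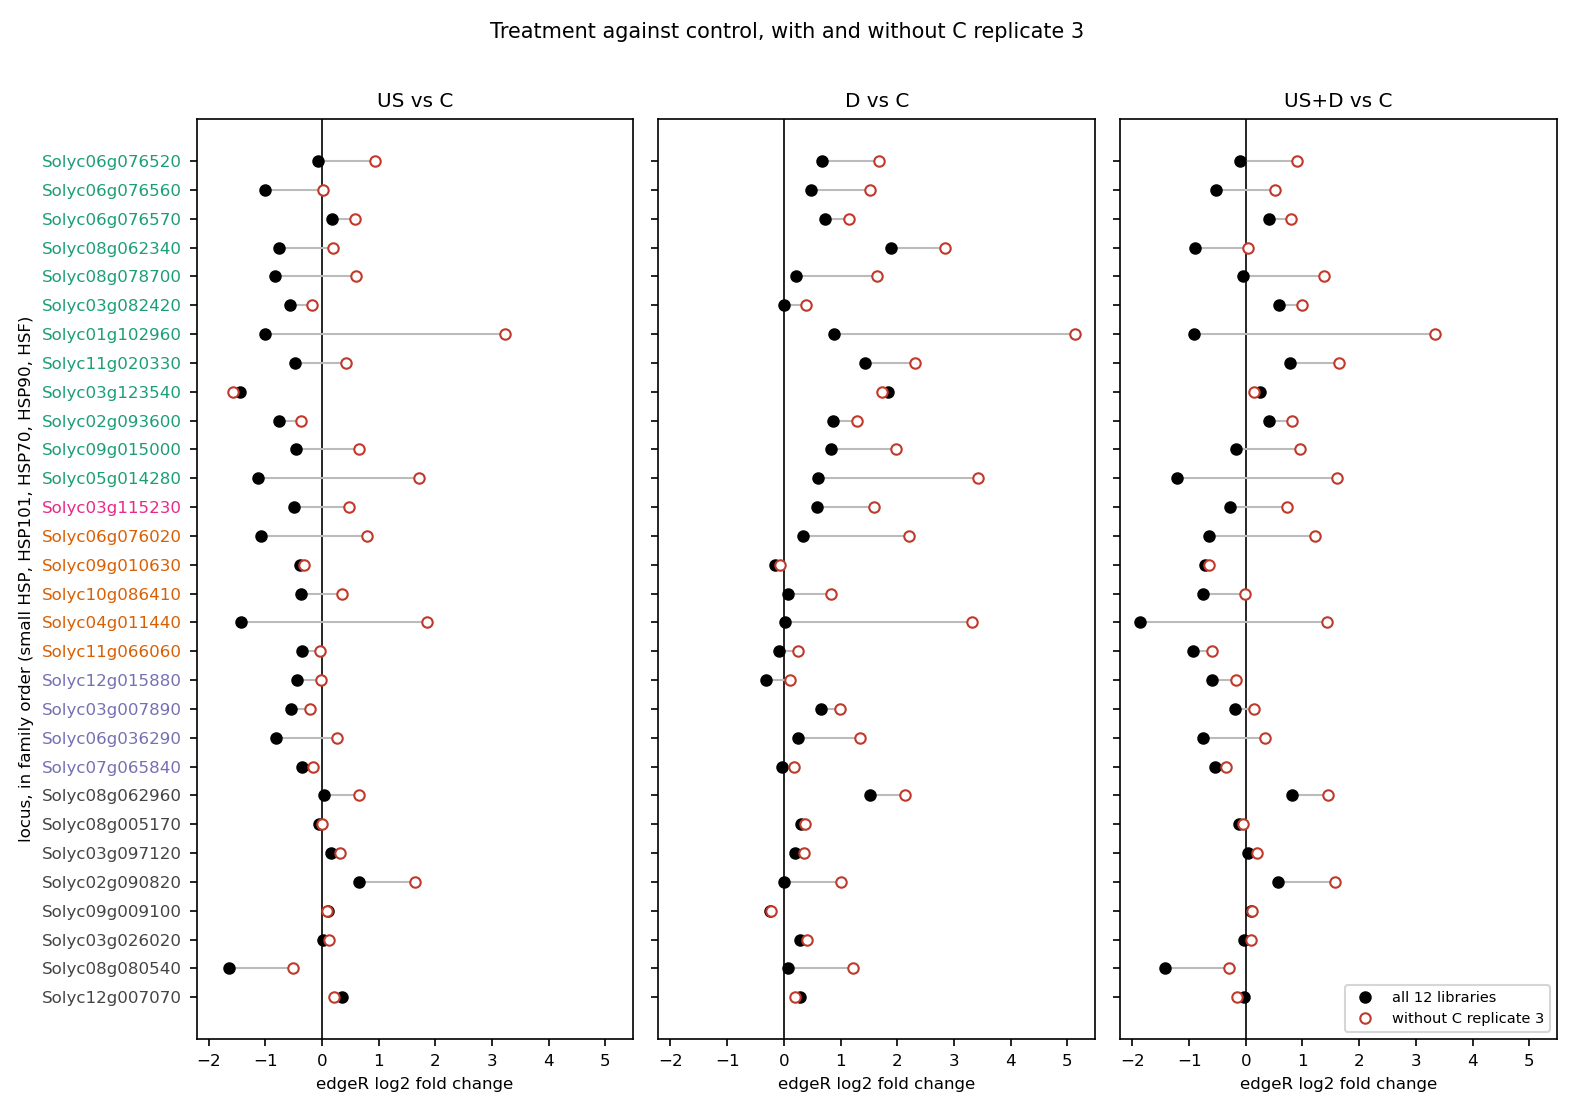
edgeR log2 fold change of each tested member in US, D and US+D against C, with all 12 libraries (filled) and without C replicate 3 (open), rows in family order. Leaving out that library shifts the medians of the 30 members to 0.24 (US), 1.25 (D) and 0.43 (US+D) where they are -0.47, 0.30 and -0.18 with all libraries.

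US against C asks whether ultrasound alone altered these genes. With all libraries, 7 of 30 members were higher in US, against 47% of all genes, and the median log2 fold change was -0.47 (all genes: -0.02). edgeR called 0 members (0% of all genes), 0 members had an unadjusted p under 0.05 in either direction (2.36% of all genes higher and 1.48% lower), and DESeq2 called 0 (0.364% of all genes). HSP70s and HSP90s had lower values in US in 5 of 5 and 4 of 4 genes, small HSPs in 11 of 12, and HSFs in 2 of 8. The libraries did not overlap for 2 members, both lower in US, where 2.65% of all genes were, and for 0 members higher, where 3.61% were. One was the HSP70 Solyc09g010630, with 2638, 2937 and 2499 CPM in US, against 3621, 3050 and 3847 CPM in C. The other was Solyc03g123540, with 0.274, 0.33 and 0.226 CPM in US, against 0.383, 1.25 and 0.636 CPM in C, and with a log2 fold change of -1.45 (SE 0.70, adjusted p = 1.0 in edgeR). The HSF Solyc08g080540 (chromosome 8, 61926877 to 61928263, - strand) had 2.42, 1.58 and 2.37 CPM in US, against 1.34, 4.66 and 13.8 CPM in C, with overlapping groups and a log2 fold change of -1.64 (SE 0.79, adjusted p = 1.0 in edgeR), or -0.51 without C replicate 3.

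Without C replicate 3 the direction turned over the list, though not in every family. HSP101 was then higher in US, as were 9 of 12 small HSPs, 3 of 5 HSP70s and 6 of 8 HSFs. HSP90s stayed lower in 3 of 4 genes (median -0.09). Then 20 of the same 30 members were higher in US, where 50% of all genes were, the median log2 fold change was 0.24, and 4 members had an unadjusted p under 0.05, all higher in US (4.44% of all genes higher and 3.83% lower). edgeR called 0 of them and DESeq2 called 2 (1.05% of all genes), Solyc01g102960 and the HSF Solyc02g090820. Solyc02g090820 (chromosome 2, 50341648 to 50344998, - strand) had 33.3, 35.4 and 55.7 CPM in US, against 13.7, 13.0 and 52.8 CPM in C, so that its US libraries were all above C replicates 1 and 2. The US libraries lay above both remaining C libraries for 5 of 30 members, where 12.5% of all genes did so. They lay below both for 2 members, where 9.56% of all genes did so, again Solyc03g123540 and Solyc09g010630.

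US + D against C asks what both treatments together altered. With all libraries, 9 of 30 members were higher, against 45.3% of all genes, with a median log2 fold change of -0.18 (all genes: -0.03). edgeR called 0 (0.00451% of all genes) and DESeq2 called 0 (0.609%). At an unadjusted p under 0.05, 0 members were higher and 2 lower, both HSP70s, where 2.54% and 2.34% of all genes were. Solyc11g066060 (chromosome 11, 49783684 to 49786646, + strand) had 215, 346 and 192 CPM in US + D, against 266, 504 and 665 CPM in C, with a log2 fold change of -0.93 (SE 0.36, adjusted p = 0.893 in edgeR), or -0.60 without C replicate 3. Solyc09g010630 had 2907, 1764 and 1721 CPM in US + D, against 3621, 3050 and 3847 CPM in C, with a log2 fold change of -0.72 (SE 0.28, adjusted p = 0.906 in edgeR). With all libraries it was the only member whose libraries did not overlap between these groups. That is 1 of 30 lower, where 4.08% of all genes were, and 0 higher, where 3.56% were.

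The sign of many members depended on C replicate 3. Solyc04g011440 had 23.8, 6.40 and 20.6 CPM in US + D, against 8.06, 4.53 and 172.2 CPM in C. Its log2 fold change was -1.86 (SE 1.09, adjusted p = 1.0 in edgeR) with all libraries, and 1.44 without C replicate 3. Solyc08g080540 had 4.53, 0.643 and 2.20 CPM in US + D, against 1.34, 4.66 and 13.8 CPM in C, with a log2 fold change of -1.43 (SE 0.78, adjusted p = 1.0 in edgeR), or -0.30 without that library. Without C replicate 3, 22 of the same 30 members were higher in US + D, where 50.5% of all genes were, the median was 0.43, and 7 had an unadjusted p under 0.05, all higher (3.63% of all genes higher and 2.78% lower). The libraries of US + D lay above both remaining C libraries for 9 members and below them for 1, where 8.32% and 9.61% of all genes did so. By family, 12 of 12 small HSPs were higher (median 0.93), as were HSP101 and 5 of 8 HSFs (median 0.10). Only 2 of 5 HSP70s and 2 of 4 HSP90s were (medians -0.02 and -0.01). limma voom, which down-weights libraries that stand apart, gave a median of 0.72 with all libraries. The HSF Solyc08g062960 had 7.13, 5.32 and 10.0 CPM in US + D, against 2.32, 3.23 and 7.20 CPM in C, and its log2 fold change was 0.82 with all libraries and 1.44 without C replicate 3. DESeq2 then called 3 members, where it called 1.08% of all genes, namely this gene, Solyc01g102960 and Solyc02g090820.

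The comparisons between treatments do not use the control libraries as values, although C still enters the shared estimate of the spread. In D against US, 27 of 30 members were higher in D, against 47.7% of all genes, and the median log2 fold change was 1.04 (all genes: -0.02). All 12 small HSPs were higher, with a median of 1.55, as were HSP101 (1.09), 5 of 5 HSP70s (median 0.44) and 4 of 4 HSP90s (median 0.69), while 5 of 8 HSFs were (median 0.15). edgeR called 0 members (0% of all genes). At an unadjusted p under 0.05, 7 members were higher and 0 lower, where 5.49% and 7.48% of all genes were. DESeq2 called 2 members, both higher in D, where it called 2.9% of all genes, and limma voom called 0, where it called 0.614%. In the fit without C replicate 3, DESeq2 called 6 members (3.89% of all genes). The libraries of D lay above all those of US for 13 members and below them for 1, where 11.4% and 11.8% of all genes did so.

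Solyc03g123540 had the highest log2 fold change of the members, with 2.66, 4.17 and 1.37 CPM in D, against 0.274, 0.33 and 0.226 CPM in US. These values rest on 57 to 144 counts in D and 8 to 14 counts in US. Its log2 fold change was 3.29 (SE 0.74, adjusted p = 0.157 in edgeR, 8.06e-04 in DESeq2), and the adjusted p of edgeR reached 0.499 when 1 library was left out. Solyc08g062960 had 15.0, 9.64 and 11.9 CPM in D, against 5.82, 2.83 and 4.43 CPM in US, with a log2 fold change of 1.48 (SE 0.44, adjusted p = 0.217 in edgeR, 0.0339 in DESeq2, and up to 0.565 in edgeR without 1 library). Solyc08g062340 had 2.12, 0.26 and 1.54 CPM in D, against 0.251, 0.0943 and 0.282 CPM in US, with a log2 fold change of 2.64 (SE 1.03, adjusted p = 0.319 in edgeR). D replicate 2 of this gene lay among the US libraries.

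Further members whose libraries were apart included Solyc09g015000 (chromosome 9, 7449362 to 7450403, + strand), with 25.5, 17.2 and 16.9 CPM in D, against 9.71, 5.99 and 8.53 CPM in US. HSP101 had 37.5, 32.6 and 23.2 CPM in D, against 20.1, 10.1 and 13.6 CPM in US, with a log2 fold change of 1.09 (SE 0.52, adjusted p = 0.413 in edgeR). Solyc04g011440 had 95.6, 41.7 and 49.5 CPM in D, against 27.6, 20.0 and 20.7 CPM in US, with a log2 fold change of 1.45 (SE 1.08, adjusted p = 0.629 in edgeR). Without C replicate 3 its log2 fold change was 1.47 and its adjusted p 0.207 in edgeR. The HSF Solyc09g009100 (chromosome 9, 2485238 to 2487913, - strand) was the member that lay lower in D, with 56.0, 48.4 and 60.2 CPM in D, against 63.8, 71.0 and 73.2 CPM in US and a log2 fold change of -0.34 (SE 0.17, adjusted p = 0.451 in edgeR).

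US + D against D asks what ultrasound before the drought treatment changed. Here 27 of 30 members were lower in US + D, with 3 higher, against 52.9% of all genes higher, and the median log2 fold change was -0.73 (all genes: 0.03). By family the medians were -0.88 for small HSPs (11 of 12 lower), -0.87 for HSP101, -0.84 for HSP70s (5 of 5 lower), -0.68 for HSP90s (4 of 4 lower) and -0.32 for HSFs (6 of 8 lower). edgeR called 0 members, where it called 0.122% of all genes, and DESeq2 called 0, where it called 3.13%, or 3 members and 4.36% of all genes in the fit without C replicate 3. At an unadjusted p under 0.05, 0 members were higher and 4 lower, where 6.71% and 5.89% of all genes were. limma voom with quality weights called 5 members, all lower in US + D, where it called 8.95% of all genes, namely Solyc05g014280, Solyc08g062340, Solyc08g080540, Solyc09g010630 and Solyc11g066060. The libraries of US + D lay below all those of D for 10 members and above them for 1, where 11.7% and 11.2% of all genes did so.

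The member with the lowest unadjusted p was the HSF Solyc08g005170, with 30.4, 25.3 and 27.7 CPM in US + D, against 37.4, 38.1 and 36.0 CPM in D. Its log2 fold change was small, -0.42 (SE 0.15, adjusted p = 0.283 in edgeR), and rests on the narrow spread of this gene. Solyc08g062340 had 0.325, 0.117 and 0.129 CPM in US + D, against 2.12, 0.26 and 1.54 CPM in D, and its log2 fold change of -2.79 (SE 1.04, adjusted p = 0.302 in edgeR) rests on 4 to 12 counts in US + D. Solyc04g011440 had 23.8, 6.40 and 20.6 CPM in US + D, against 95.6, 41.7 and 49.5 CPM in D, with a log2 fold change of -1.88 (SE 1.09, adjusted p = 0.530 in edgeR). Solyc06g076520 had 54.6, 24.4 and 57.8 CPM in US + D, against 95.5, 63.9 and 73.7 CPM in D, with a log2 fold change of -0.77 (SE 0.52, adjusted p = 0.603 in edgeR). The groups did not overlap in these genes except in Solyc08g062340, where D replicate 2 was below US + D replicate 1. D against US and US + D against D share the D libraries, among which D replicate 1 was above both others in 22 of 30 members, so that their values are not independent of each other.

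**Figure D4:**
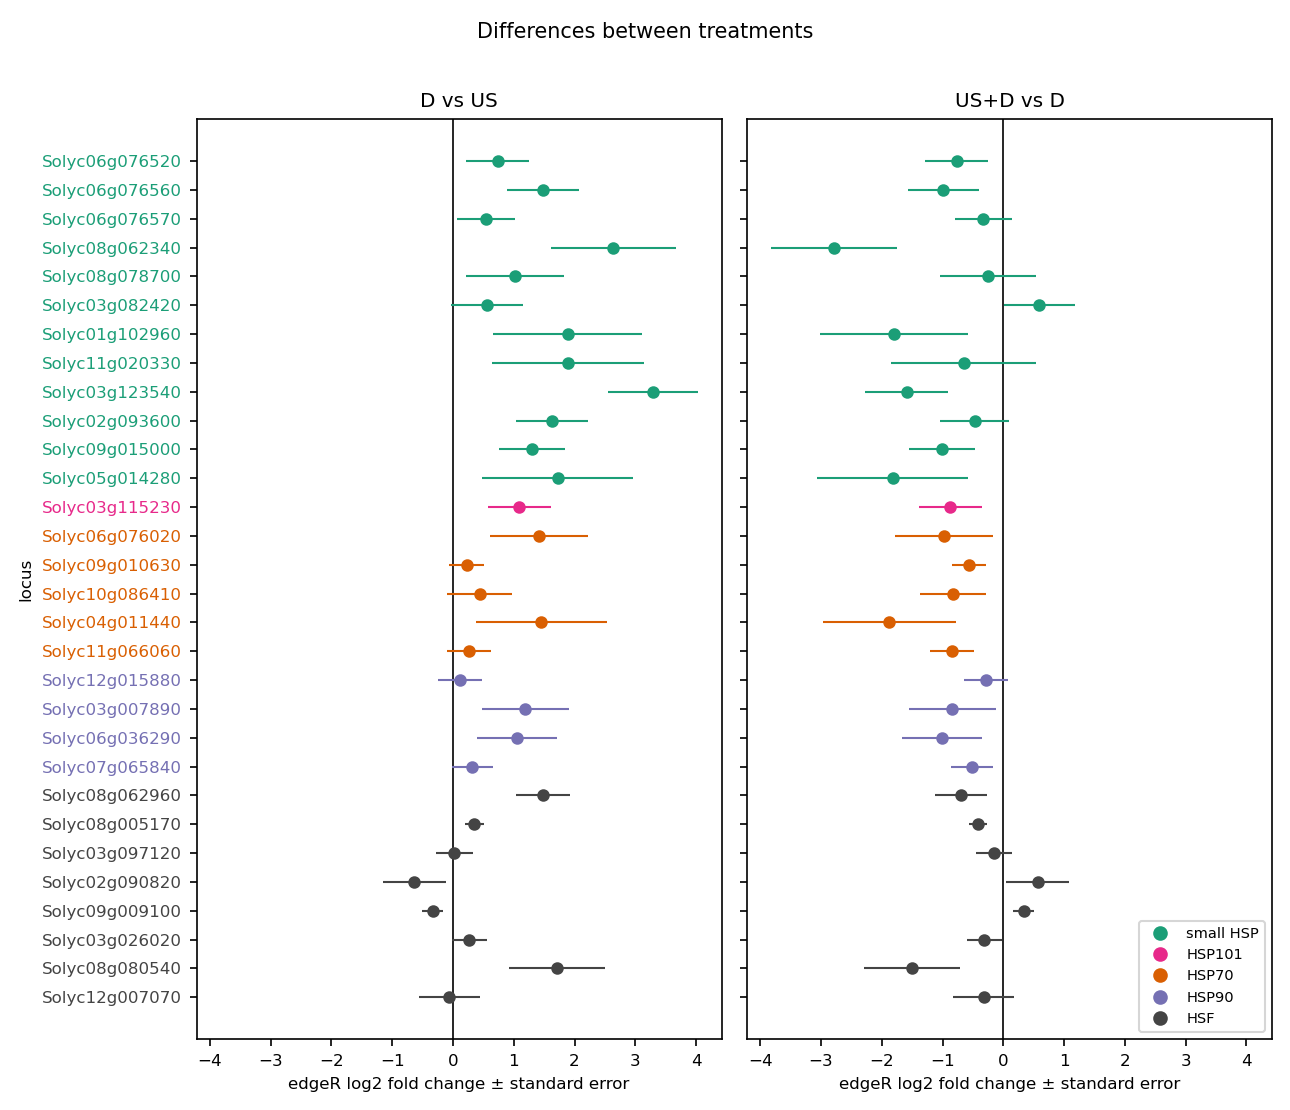
edgeR log2 fold change with its standard error for each tested member in D against US (left) and US+D against D (right), coloured by family. The members lie mostly right of 0 in D against US (27 of 30) and left of 0 in US+D against D (27 of 30), the D libraries being shared by both panels.

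US + D against US gave no side to the list as a whole. By family, in the fit without C replicate 3, 9 of 12 small HSPs (median 0.40) and HSP101 were higher. HSP70s were lower in 4 of 5 genes (median -0.38), HSFs in 5 of 8 and HSP90s in 2 of 4. In the fit with all libraries, 15 of the 30 members were higher and 15 lower (49.9% of all genes higher), and the median log2 fold change was 0.03. edgeR called 0 (0% of all genes), DESeq2 called 0 (0.0443%, and 0.0972% in the fit without C replicate 3, again with 0 members), and 0 members had libraries that did not overlap in either direction (2.51% and 4.46% of all genes). At an unadjusted p under 0.05 there was 1 higher member (1.34% of all genes) and 0 lower (2.03%). It was Solyc03g123540, with 0.217, 1.58 and 0.926 CPM in US + D, against 0.274, 0.33 and 0.226 CPM in US, and its log2 fold change was 1.70 (SE 0.71, adjusted p = 1.0 in edgeR). US + D replicate 1 was below all US libraries. Solyc02g093600 had 0.705, 0.585 and 0.656 CPM in US + D, against 0.137, 0.589 and 0.141 CPM in US, with a log2 fold change of 1.15 (SE 0.59, adjusted p = 1.0 in edgeR). Solyc11g020330 had 42, 9 and 18 counts in US + D, against 4, 0 and 21 counts in US, with a log2 fold change of 1.24 (SE 1.25, adjusted p = 1.0 in edgeR). In CPM these were 1.14, 0.263 and 0.211 in US + D, against 0.0914, 0 and 0.593 in US.

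The test of whether ultrasound shifted drought-treated plants differently from untreated ones, (US + D minus D) minus (US minus C), called 0 members in edgeR (0% of all genes) and 0 in DESeq2 (0.477%), with 0 members at an unadjusted p under 0.05 (2.74% of all genes higher and 3.68% lower). The median was -0.31 over the members, 8 of them above 0 (54.1% of all genes), and 0.05 over all genes. Without C replicate 3 it was -0.97 over the same 30 members, 9 had an unadjusted p under 0.05, all negative (4.08% of all genes positive and 5.58% negative), and DESeq2 called 3 members, where it called 1.02% of all genes (Solyc01g102960, Solyc04g011440 and Solyc09g015000), while edgeR called 0.

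The HSF Solyc09g065660 was below the filter with all libraries (15, 16 and 4 counts in D, 4, 0 and 2 in US, 0, 8 and 0 in US + D, and 0, 1 and 0 in C). Its counts in D were above those in C in all libraries, but no fold is given at these counts. It passed the filter in the fit without C replicate 3 through its counts in D, and is therefore left out of the counts and medians above.

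Related genes outside the list are given by direction in 3 comparisons and by the genes called. Of 14 further HSF loci, 10 were tested, and edgeR called 0 in each comparison. Of these 10, 6 were higher in D against C (median log2 fold change 0.06). In D against US 7 were higher (median 0.07), and in US + D against D 4 were (median -0.21). DESeq2 called 1 against C (in D), Solyc07g040680, which had 75.3, 59.7 and 42.9 CPM in D, against 22.2, 14.3 and 15.6 CPM in C, with an edgeR log2 fold change of 1.77 (SE 0.53, adjusted p = 0.305). Of 17 further chaperone loci (HSP70s, DnaJ co-chaperones, BAG proteins and others), edgeR called 0 in each comparison with all libraries. Of these 17, 7 were higher in D against C (median log2 fold change -0.36), or 10 without C replicate 3 (median 0.60). In D against US 6 of 17 were higher (median -0.30), and in US + D against D 9 of 17 were (median 0.12). These loci thus did not share the direction of the members between treatments. In D, DESeq2 called 2 higher and 1 lower against C, where it called 1.86% of all genes. The DnaJ protein Solyc04g081530 had 98.4, 125 and 91.9 CPM in D, against 33.3, 43.0 and 25.1 CPM in C, and Solyc01g104740 had 18.8, 15.4 and 33.2 CPM in D, against 4.59, 6.24 and 11 CPM in C. The HSP70 Solyc01g106260 had 26.5, 21.1 and 26.2 CPM in D, against 36.8, 40.1 and 41.4 CPM in C. In US it called 1 (0.364% of all genes), the DnaJ protein Solyc03g097240, with 23.4, 14.6 and 27.5 CPM in US, against 11.7, 9.70 and 9.33 CPM in C. In US + D it called 1 (0.609% of all genes), the putative HSP Solyc07g055720, with 4.34, 1.64 and 5.04 CPM in US + D, against 1.28, 0.439 and 0.721 CPM in C. Between treatments, DESeq2 called 3 of the 17 chaperone loci and Solyc07g040680 lower in US + D against D (3.13% of all genes), 3 of the 17 higher and 1 lower in D against US (2.9%), and 2 in the interaction, both negative (0.477%). Several of these loci entered the list because the study had selected them on the same libraries, so that they are no independent evidence.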

How the data were processed

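Poly-A RNA of tomato leaves was sequenced in 12 libraries, 3 in each of US, D, US + D and C. The authors deposited 1 table of raw counts per gene, made per the labels and the study's methods by trimming with fastp, aligning with Hisat2 to the SL4.0 genome and counting with FeatureCounts on the ITAG models of that release. Strand setting and treatment of reads that match several places are not given in the sources used here, so that paralogs and overlapping genes are uncertain. Genes were filtered with filterByExpr, scaled by TMM and fitted in edgeR 4.0.16 (quasi-likelihood, 1 mean per group, all 12 libraries, R 4.3.3), with Benjamini-Hochberg adjustment over all 22157 genes tested. A call needed an adjusted p under 0.05 and an absolute log2 fold change over 0.58. SE is the size of the log2 fold change divided by the square root of F, which is approximate. CPM uses the scaled library sizes, log2 CPM a prior count of 2, and floors 3 counts. The p-values measure the spread between libraries that the labels call biological replicates. An exact permutation of 3 against 3 libraries cannot go below p = 0.1, so none was used for single genes.

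The alternatives were DESeq2 1.42.0, limma voom with quality weights 3.58.1, RLE scaling, other low-count filters, a robust fit, a replicate block, only the groups compared and leaving out each library. Leaving out libraries in DESeq2 was chosen after seeing the data. So was the choice to set the values without C replicate 3 beside those with all libraries. The members and lists, and thus the genes named, were chosen with earlier results of these data known. Full values were given for the highest member of each family in D against C, and for every member called by edgeR or DESeq2 with all libraries. They were also given for the 2 members with the lowest p and the 2 with the largest fold change in each comparison. Of the 3 members with the largest spread, Solyc01g102960 and Solyc05g014280 were given as counts without a fold change. Members that DESeq2 called only without C replicate 3 were named in the comparisons with C and in the interaction, in part without values. In D against US and in US + D against D they were given as counts. Solyc09g015000 and Solyc09g009100 were also described in D against US after their values were seen. The fits were also run on simulated counts for D against C, with results not reported here. No simulated library stood apart, so that this run does not bear on C replicate 3. Sequences and promoter motifs were not analysed here.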

Additional observations from a re-analysis of the deposited data

How the results depend on the processing

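edgeR called 0 members in every comparison under every alternative run in it, leaving out any 1 library included. DESeq2 called 1 member in D against C and 2 in D against US, and limma voom called 1 in D against C and 5 in US + D against D. The member median was 1.23 in D against C and 0.72 in US + D against C in limma voom, and the value of Solyc04g011440 in US + D against C turned to 0.72 in limma voom. When 1 library was left out, the median in edgeR over the members that passed the filter of each fit (31 without C replicate 3, with Solyc09g065660) lay between -0.84 and 0.27 in US against C, 0.12 and 1.28 in D against C, and -0.53 and 0.52 in US + D against C. It lay between -0.82 and -0.51 in US + D against D, 0.82 and 1.30 in D against US, -0.02 and 0.30 in US + D against US, and -1.02 and -0.12 in the interaction. Solyc04g011440 in US + D against C lay between -2.41 and 1.44, the upper bound without C replicate 3. DESeq2 called 0 to 2 members in US against C, 0 to 8 in D against C, 0 to 3 in US + D against C, 0 to 3 in US + D against D, 1 to 6 in D against US, 0 in US + D against US and 0 to 3 in the interaction, the upper bounds without C replicate 3. Fewer samples enter such fits, and the cause of the other differences was not tested. An interaction with only the groups compared is the main fit itself and gave no separate value.

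Replicate numbers are shared by the groups, and no label says that they pair the samples. Same-numbered libraries had correlations of their deviations between -0.40 and 0.75, and 9 of 18 pairs were over 0.1. Libraries of different number had correlations between -0.64 and 0.55, so that these ranges do not settle the pairing. With a replicate block, edgeR called 0 members and the medians were -0.33 in US against C, 0.71 in D against C, -0.03 in US + D against C, -0.79 in US + D against D, 1.17 in D against US, 0.02 in US + D against US and -0.42 in the interaction.

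With 3 libraries a group and 1 control library apart, the precision of every comparison with C is limited. Small HSPs under 1 CPM rest on few counts in many libraries, and small differences were not detectable at that depth.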
